A study of Mus musculus with 10 samples.

Results

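The genes described here make cholesterol and control how much of it a cell holds. They were taken by name from a list of 31 symbols, of which Sc4mol is an older symbol of Msmo1 and Acat2 was not analysed here. The other 29 genes were measured, among 18193 genes in all, each through its brightest probe set that carries a single gene symbol. RNA came from epididymal white adipose tissue, the fat pad beside the epididymis, of male C57BL/6J mice. The 5 high-fat mice had received a diet of 60% fat for 8 weeks, starting at 8 weeks of age. The 5 chow mice had eaten the normal chow CRF-1 over the same weeks. Each mouse gave 1 array, and no genetic change was listed for any of them. An array here carries the number of its mouse within its diet group, and the numbers pair nothing across the diets.

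Cholesterol is built from acetyl-CoA. A first set of enzymes makes mevalonate and turns it into small isoprenoid units, and a second set joins these into squalene, closes the rings and trims the sterol to cholesterol. The pathway is steered by feedback in the endoplasmic reticulum. When sterols are plentiful, the Insig proteins hold Scap and its cargo, the SREBP transcription factors, in that membrane. When sterols run short, Scap carries SREBP to the Golgi, where a pair of proteases releases the part that enters the nucleus and switches on the genes of the pathway. Fat cells hold a large share of the body's unesterified cholesterol, most of it taken up rather than made, much of it at the surface of the lipid droplet.

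SREBP acts on promoters together with other factors, so the promoter letters of the genes were read from RefSeq (mouse build GRCm38.p6), in windows of 300 bases from 250 before to 50 after each start site. The table held 31 windows for 25 of the 29 genes. Fdps, Fdft1, Sqle and Stard4 are named only. The 4 windows below are shown because their genes carry the contrasts of the results: Hmgcs1, Sc5d and Insig1, which were higher on the high-fat diet, and Osbp, which was lower. They are examples and do not stand for all higher or all lower genes. Capitals mark an SREBP element (TCACNCCAC), an E-box (CACGTG) or a CCAAT box, read on either strand, so that ATTGG is a CCAAT box of the other strand.
Hmgcs1 promoter, chr13:119690101-119690400, plus strand: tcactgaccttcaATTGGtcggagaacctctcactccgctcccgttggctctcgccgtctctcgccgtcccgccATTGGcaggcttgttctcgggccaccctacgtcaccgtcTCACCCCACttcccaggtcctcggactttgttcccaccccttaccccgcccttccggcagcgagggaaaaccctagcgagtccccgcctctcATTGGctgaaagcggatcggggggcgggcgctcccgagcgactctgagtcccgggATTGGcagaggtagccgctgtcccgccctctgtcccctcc
Sc5d promoter, chr9:42264251-42264550, minus strand: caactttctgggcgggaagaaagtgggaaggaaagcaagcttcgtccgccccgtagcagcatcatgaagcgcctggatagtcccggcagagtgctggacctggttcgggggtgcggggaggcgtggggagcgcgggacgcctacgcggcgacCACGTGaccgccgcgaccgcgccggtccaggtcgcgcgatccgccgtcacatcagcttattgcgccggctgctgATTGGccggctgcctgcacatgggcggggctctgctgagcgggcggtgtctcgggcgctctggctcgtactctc
Insig1 promoter, chr5:28071162-28071461, plus strand: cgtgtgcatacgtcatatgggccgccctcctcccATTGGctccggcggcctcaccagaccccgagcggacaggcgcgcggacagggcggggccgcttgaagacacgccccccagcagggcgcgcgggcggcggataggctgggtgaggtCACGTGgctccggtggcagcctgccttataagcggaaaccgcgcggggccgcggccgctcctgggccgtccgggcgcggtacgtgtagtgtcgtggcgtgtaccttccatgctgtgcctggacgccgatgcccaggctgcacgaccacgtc
Osbp promoter, chr19:11965594-11965893, plus strand: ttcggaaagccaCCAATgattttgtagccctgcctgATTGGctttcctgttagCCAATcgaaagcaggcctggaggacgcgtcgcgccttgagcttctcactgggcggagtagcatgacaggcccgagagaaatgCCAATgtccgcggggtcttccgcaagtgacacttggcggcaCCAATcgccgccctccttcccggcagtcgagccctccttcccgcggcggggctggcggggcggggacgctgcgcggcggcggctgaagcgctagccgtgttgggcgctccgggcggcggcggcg
The Hmgcs1 window holds an SREBP element 137 bases before the start site and 4 CCAAT boxes. The Sc5d window has an E-box at -98 and a CCAAT box at -24, and the Insig1 window an E-box at -101 and a CCAAT box at -216. The Osbp window holds 5 CCAAT boxes and neither of the other marked motifs. Hmgcs1 was the 1 gene of the set with the letters TCACNCCAC in its windows (3.23% of the set's windows, 1.24% of all 32851 windows). CACGTG lay in 19.4% of the set's windows and in 7.15% of all windows. It was found in 5 genes, Hsd17b7, Sc5d, Dhcr7, Insig1 and Scap. The first 4 were higher on the high-fat diet, as were 8 of all 29 genes of the set and 12.9% of all genes. All 8 are among the 25 genes with a window. Mvk, Lss and Ebp were also higher, and their windows hold neither TCACNCCAC nor CACGTG. Dhcr7 has several windows, and 1 of them holds the E-box. The 2 windows of Scap overlap. CCAAT was in 64.5% of the set's windows and 37.4% of all, and the GC box GGGCGG, not capitalised here, in 77.4% and 35.7%. These matches describe letters in a window and were not tested.

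Levels below are log2 intensities after quantile normalisation, and a difference is high-fat minus chow. The adipocyte markers were bright in all 10 arrays, with a mean of the 6 measured markers, of 8 listed, of 11.90 to 12.28 in high-fat arrays and 9.92 to 12.24 in chow arrays. Of these 6, 1 was higher, Lep, by 3.66. Lep lay at 12.43 to 12.73 in high-fat arrays and 7.07 to 11.47 in chow arrays, and it enters the adipocyte means. All 8 macrophage markers were higher on the high-fat diet, with a mean of 10.58 to 11.22 in high-fat arrays and 7.11 to 8.04 in chow arrays. All 7 epithelial markers were lower, at 4.09 to 4.77 in high-fat arrays and 6.96 to 10.42 in chow arrays. Of 14 measured epididymis and testis markers 6 were lower and 8 did not pass, with all 14 differences below 0 (median -4.04). The mean of the 14 lay at 4.01 to 5.53 in high-fat arrays, close to the median of 4.39 of all probe sets, and at 6.99 to 12.02 in chow arrays. In chow array 1 these markers ran apart, with Pate4 at 12.95 and Adam7 at 11.31 but Lcn9 at 1.13 and Cst11 at 1.32. Among the chow arrays, array 2 had the highest mean of epididymis and testis markers (12.02) and array 1 the highest epithelial mean (10.42). These 2 arrays also had the lowest adipocyte means of all 10, 10.72 in array 1 and 9.92 in array 2. Of 4 measured markers of steroid-making Leydig cells 1 was lower, with a mean of 2.35 to 3.67 in high-fat arrays and 3.36 to 6.23 in chow arrays. RNA and cDNA integrity can be read from the actin control probes, whose ratio of 5′ over 3′ signal was 0.614 ± 0.0380 in high-fat arrays and 0.341 ± 0.0731 in chow arrays (SD, n = 5 each). The diets did not overlap in this ratio (0.557 to 0.643 against 0.272 to 0.456). Nor did they in that of the Gapdh control probes (1.02 to 1.08 in high-fat arrays, 0.56 to 0.9 in chow arrays). Differences of RNA integrity and of diet thus cannot be told apart here. In a whole tissue, fewer cells of a type and less RNA per cell cannot be told apart.

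On the high-fat diet 8 of the 29 sterol genes were higher and 2 were lower (limma, adjusted p under 0.05 over all genes), and 19 did not pass the test. The higher genes made up 27.6% of the set, against 12.9% of all genes, and the lower ones 6.90%, against 13.1% of all genes. The median difference was 0.37 for the set and -0.04 for all genes, with 19 of the 29 genes above 0. The rise lay in the synthesis enzymes and in Insig1. Of 19 enzymes 7 were higher and 1 lower, and of the 10 sensing, transport and receptor genes Insig1 was higher and Osbp lower. In 6 genes, Hmgcs1, Mvk, Ebp, Sc5d, Dhcr7 and Insig1, each high-fat array lay above each chow array, an ordering shown by 11.5% of all genes. In 1 gene, Fdft1, each high-fat array lay below each chow array, as in 11.0% of all genes.

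**Figure D1:**
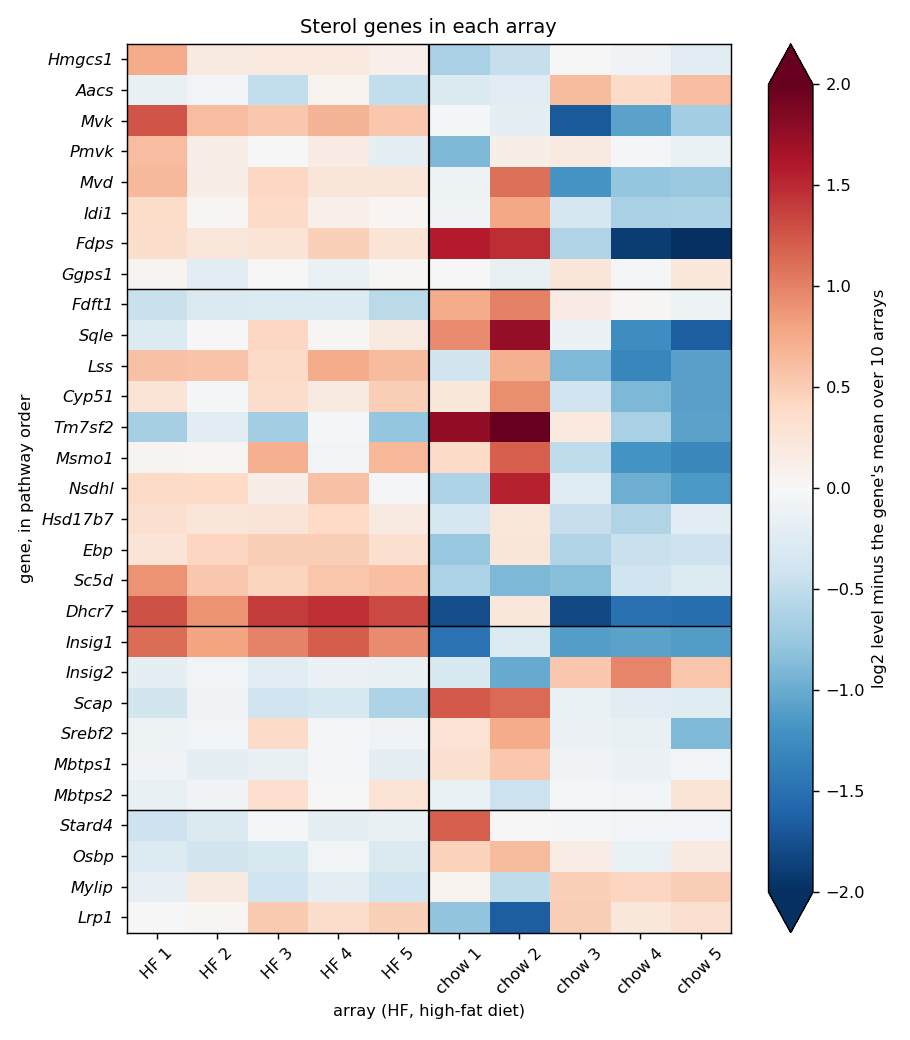
Log2 level of each of the 29 sterol genes (rows, in pathway order) in each of the 5 high-fat (HF) and 5 chow arrays (columns), shown as the difference from the gene's mean over the 10 arrays. The rows of Dhcr7 and Insig1 are above their mean in all 5 high-fat arrays, and chow array 2, the highest array for 11 of the 29 genes, is red in many rows where chow arrays 4 and 5 are blue.

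The chow arrays did not share one pattern. All 29 genes had a larger SD among chow arrays than among high-fat arrays, as did 76.8% of all genes, and the median SD of the set was 0.197 in high-fat arrays and 0.588 in chow arrays. For 15 of the 29 genes (51.7%, against 26.1% of all genes) chow arrays 1 and 2 both lay above chow arrays 3, 4 and 5. For 6 genes (20.7%, against 22.1%) both lay below them. The enzymes' median deviation from their own means was 0.14 to 0.36 in high-fat arrays. In chow arrays 1 to 5 it was -0.10, 0.71, -0.40, -0.65 and -0.68, so chow array 2 stood above all 5 high-fat arrays and the other chow arrays below them. Since chow arrays 1 and 2 had the highest epithelial means and the lowest adipocyte means, differences are also given over the 8 other arrays. Without chow arrays 1 and 2, 14 sterol genes were higher, against 18.5% of all genes, and 5 were lower, against 19.8% of all genes. Of the 10 calls made over all arrays 9 were made there in the same direction, and the exception was Hmgcs1. With the epididymis and testis marker mean as a covariate, 4 sterol genes, Nsdhl, Ebp, Dhcr7 and Insig1, were higher and 0 lower by limma (10 and 1 at an unadjusted p under 0.05), against 3.11% of all genes higher and 1.29% lower. The set's median difference was 0.85 in this fit, against 0.37 without the covariate, and that of all genes was -0.0037. The marker means did not overlap between the diets (4.01 to 5.53 in high-fat arrays, 6.99 to 12.02 in chow arrays). This fit therefore separates diet from markers poorly. In chow array 1 the mean of 6.99 also joins markers above every high-fat array, such as Pate4, with others below every one, such as Lcn9. The part of the other tissue's RNA in the differences was not tested beyond these fits.

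The counts also depended on the scale. With the intensities as deposited, not quantile normalised, 8 sterol genes were higher and 0 lower, against 15.1% and 8.20% of all genes. With array medians centred 11 were higher and 0 lower, against 24.3% and 7.92% of all genes. At an unadjusted p under 0.05 limma gave 10 higher and 0 lower as deposited, and 15 and 0 with medians centred. The median difference of all genes moved with the scale, being -0.04 after quantile normalisation, 0.08 as deposited and 0.21 after centring. The set's median minus that of all genes was 0.40 after quantile normalisation and 0.57 under either of the others. Among all genes called, 49.6% were higher after quantile normalisation, 64.8% as deposited and 75.4% after centring. The 8 genes called higher kept that call under all 3 scales, and the 2 called lower did not.

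The mevalonate and isoprenoid steps comprised 8 measured genes, with a median difference of 0.47. By limma 2 were higher (25.0%, against 12.9% of all genes) and 0 lower (13.1% of all genes). At an unadjusted p under 0.05 the counts of this arm were also 2 and 0. Hmgcs1, the cytosolic synthase that makes HMG-CoA, had levels of 12.34, 11.77, 11.79, 11.80 and 11.70 in high-fat arrays 1 to 5, against 10.94, 11.13, 11.59, 11.53 and 11.38 in chow arrays 1 to 5. The lowest high-fat array stood only just above the highest chow array. Hmgcs1 averaged 11.88 ± 0.26 in high-fat arrays and 11.32 ± 0.27 in chow arrays (SD, n = 5 each), a rise of 0.56 (SE 0.16, limma adjusted p = 0.0274). The call was lost without high-fat array 1 (0.45, adjusted p = 0.0550), without chow array 1 (0.47, adjusted p = 0.0555) and with the mean of its probe sets (0.34, adjusted p = 0.242). Over the 24 alternatives its adjusted p ran from 0.000743 to 0.242.

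Mvk, the kinase that phosphorylates mevalonate, rose more. Its levels were 7.14, 6.50, 6.42, 6.56 and 6.42 in high-fat arrays, against 5.87, 5.71, 4.21, 4.82 and 5.21 in chow arrays. No chow array reached any high-fat array, and within chow, arrays 1 and 2 were the highest. The difference was 1.45 (SE 0.31, limma adjusted p = 0.00663), or 2.73-fold, and it was 1.87 without chow arrays 1 and 2. With the marker covariate it was 1.29 and no longer passed (adjusted p = 0.266, the highest over the 24 alternatives, from 0.000248).

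The next enzymes of the arm did not pass over all 10 arrays. The kinase Pmvk differed by 0.30 (SE 0.22, adjusted p = 0.361) and the decarboxylase Mvd, which makes isopentenyl diphosphate, by 0.68 (SE 0.38, adjusted p = 0.222). Idi1, which isomerises that unit, differed by 0.37 (SE 0.25, adjusted p = 0.315). For Mvd and Idi1 the chow group straddled the high-fat group. Mvd lay at 5.79 to 6.30 in high-fat arrays, against 6.75 in chow array 2 and 4.48 to 5.56 in the other chow arrays. Idi1 lay at 8.49 to 8.82 in high-fat arrays, against 9.22 in chow array 2 and 7.79 to 8.37 in the other chow arrays. Leaving out chow array 2 alone, both passed, Mvd at 1.04 (adjusted p = 0.00813) and Idi1 at 0.61 (adjusted p = 0.00983). The range of adjusted p over the alternatives was 0.000812 to 0.413 for Mvd and 0.000952 to 0.519 for Idi1. Pmvk passed only with array medians centred (0.66, adjusted p = 0.0314, range 0.0314 to 0.674).

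Fdps, the synthase of farnesyl diphosphate, showed the widest chow spread of the set. It had 8.22, 8.09, 8.14, 8.34 and 8.15 in high-fat arrays, against 9.44, 9.33, 7.26, 5.96 and 5.71 in chow arrays. The high-fat arrays agreed within 0.0956 (SD) and fell inside the chow range, above chow arrays 3 to 5 and below arrays 1 and 2. The difference of 0.64 had a 95% interval of -0.88 to 2.17 (adjusted p = 0.545). It was 1.87 without those 2 chow arrays (SE 0.29, adjusted p = 0.000594, range over the alternatives 0.000594 to 0.860). Ggps1, which adds a further unit to make geranylgeranyl diphosphate, differed by -0.11 (SE 0.13, adjusted p = 0.579), and no alternative gave it a call. Aacs, which activates acetoacetate for lipid synthesis in the cytosol, ran the other way at -0.44 (SE 0.21, adjusted p = 0.155). Aacs was lower without chow arrays 1 and 2 (-0.77, adjusted p = 0.00190, range over the alternatives 0.00190 to 0.947), where all high-fat arrays lay at 8.39 to 8.95 and chow arrays 3, 4 and 5 at 9.51, 9.26 and 9.50.

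The squalene and sterol steps comprised 11 measured genes, with a median difference of 0.56. Of these 5 were higher (45.45%, against 12.9% of all genes) and 1 lower (9.09%, against 13.1%). The one that fell was the first enzyme, Fdft1 or squalene synthase, which commits farnesyl units to sterols. It had levels of 9.15, 9.30, 9.32, 9.32 and 9.06 in high-fat arrays, against 10.34, 10.61, 9.76, 9.62 and 9.50 in chow arrays. The groups did not overlap, and chow arrays 1 and 2 stood well above the other 3. The difference was -0.74 (SE 0.20, limma adjusted p = 0.0220) and -0.40 without chow arrays 1 and 2 (SE 0.094, adjusted p = 0.00703). It did not pass as deposited (-0.41, adjusted p = 0.223), with array medians centred (-0.27, adjusted p = 0.335) or with the mean of its probe sets (-0.49, adjusted p = 0.289). Nor did it without high-fat array 5 (-0.69, adjusted p = 0.0565) or without probe sets open to cross-matches (-0.62, adjusted p = 0.108). With the marker covariate it was -0.34 and did not pass (adjusted p = 0.661, the highest over the alternatives, from 0.00703).

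Sqle, the epoxidase that follows and one of the pathway's rate-limiting enzymes, did not pass over all arrays. It lay at 7.18, 7.45, 7.86, 7.47 and 7.63 in high-fat arrays, against 8.40, 9.21, 7.33, 6.20 and 5.80 in chow arrays. As with Fdps, chow arrays 1 and 2 lay above every high-fat array, and chow arrays 4 and 5 below every one. The difference was 0.13 with a 95% interval of -1.12 to 1.38 (adjusted p = 0.898), and 1.07 without chow arrays 1 and 2 (adjusted p = 0.0172, range over the alternatives 0.0172 to 0.974).

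Lss, the cyclase that folds the epoxide into lanosterol, rose. It had 7.63, 7.61, 7.43, 7.79 and 7.67 in high-fat arrays, against 6.67, 7.75, 6.17, 5.74 and 5.97 in chow arrays. Chow array 2 alone reached the high-fat range. Its difference was 1.17 (SE 0.33, limma adjusted p = 0.0229). It missed the threshold without chow array 3 (1.09, adjusted p = 0.0545), high-fat array 4 (1.13, adjusted p = 0.0551) or high-fat array 5 (1.16, adjusted p = 0.0519). The difference was 1.67 without chow arrays 1 and 2 (adjusted p = 1.28e-05, the lowest over the alternatives). With the marker covariate it was larger, at 2.06, and did not pass (adjusted p = 0.0572, the highest).

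The next 4 enzymes, from the stage in which lanosterol loses its extra methyl groups, did not pass over 10 arrays, and 3 of them had positive differences. These were 0.50 for the demethylase Cyp51 (SE 0.34, adjusted p = 0.314), 0.56 for the methyl oxidase Msmo1 (SE 0.44, adjusted p = 0.388) and 0.58 for the decarboxylase Nsdhl (SE 0.43, adjusted p = 0.365). In each, chow array 2 was the highest array of all 10. Cyp51 lay at 7.89 to 8.41 in high-fat arrays, against 8.85 in chow array 2 and 6.84 to 8.14 in the other chow arrays. Nsdhl lay at 8.92 to 9.54 in high-fat arrays, against 10.50 in chow array 2 and 7.81 to 8.70 in the other chow arrays. Leaving out chow array 2 alone, Cyp51 passed at 0.80 (adjusted p = 0.0314, range over the alternatives 0.000763 to 0.545) and Nsdhl at 1.04 (adjusted p = 0.00257, range 0.00194 to 0.582). Msmo1 passed once both were left out, at 1.28 (adjusted p = 0.00160, range 0.00160 to 0.696). The reductase Tm7sf2 was the exception, at -0.96 (SE 0.57, adjusted p = 0.253). Its levels were 6.65 to 7.39 in high-fat arrays, against 9.20 and 9.56 in chow arrays 1 and 2 and 6.36 to 7.63 in chow arrays 3 to 5. Without chow arrays 1 and 2 its difference was 0.03.

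The last 4 measured enzymes on the way to cholesterol all rose. Hsd17b7, the ketoreductase that completes demethylation, had 7.63, 7.55, 7.58, 7.71 and 7.49 in high-fat arrays, against 6.99, 7.53, 6.85, 6.71 and 7.10 in chow arrays, with chow array 2 inside the high-fat range. Its difference was 0.56 (SE 0.16, limma adjusted p = 0.0229). It missed the threshold without chow array 3 (0.51, adjusted p = 0.0540), high-fat array 1 (0.55, adjusted p = 0.0508) or high-fat array 4 (0.53, adjusted p = 0.0580), over a range of 0.000647 to 0.0939. Ebp, the isomerase that moves the sterol ring's double bond, had 9.60, 9.76, 9.83, 9.83 and 9.65 in high-fat arrays, against 8.58, 9.58, 8.75, 8.90 and 8.93 in chow arrays. Chow array 2 came within a small margin of the high-fat arrays and the other 4 stayed well below. The difference was 0.79 (SE 0.17, limma adjusted p = 0.00605), and it kept its call under all 24 alternatives.

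Sc5d, the desaturase whose promoter with an E-box is printed above, separated the diets most evenly among the enzymes. It had 10.004, 9.64, 9.55, 9.66 and 9.70 in high-fat arrays, against 8.49, 8.21, 8.26, 8.71 and 8.82 in chow arrays. Here chow arrays 1 and 2 lay among the others, and the difference of 1.21 (SE 0.14, limma adjusted p = 0.000176) was 1.11 without them. It did not pass with the marker covariate (0.85, adjusted p = 0.0756, the highest of a range from 1.48e-05). Dhcr7, the reductase that makes cholesterol from its last precursor in one branch of the pathway, had the largest difference of the 29 genes. It had 7.82, 7.45, 7.95, 8.00 and 7.86 in high-fat arrays, against 4.77, 6.78, 4.75, 5.06 and 5.04 in chow arrays. The other chow arrays lay together at 4.75 to 5.06, and chow array 2 stood apart, still below each high-fat array. The difference was 2.54 (SE 0.35, limma adjusted p = 0.000513), or 5.80-fold. Because those chow levels are dim, the offset matters: with 16 added to each intensity it was 2.10. The call held under all 24 alternatives.

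**Figure D2:**
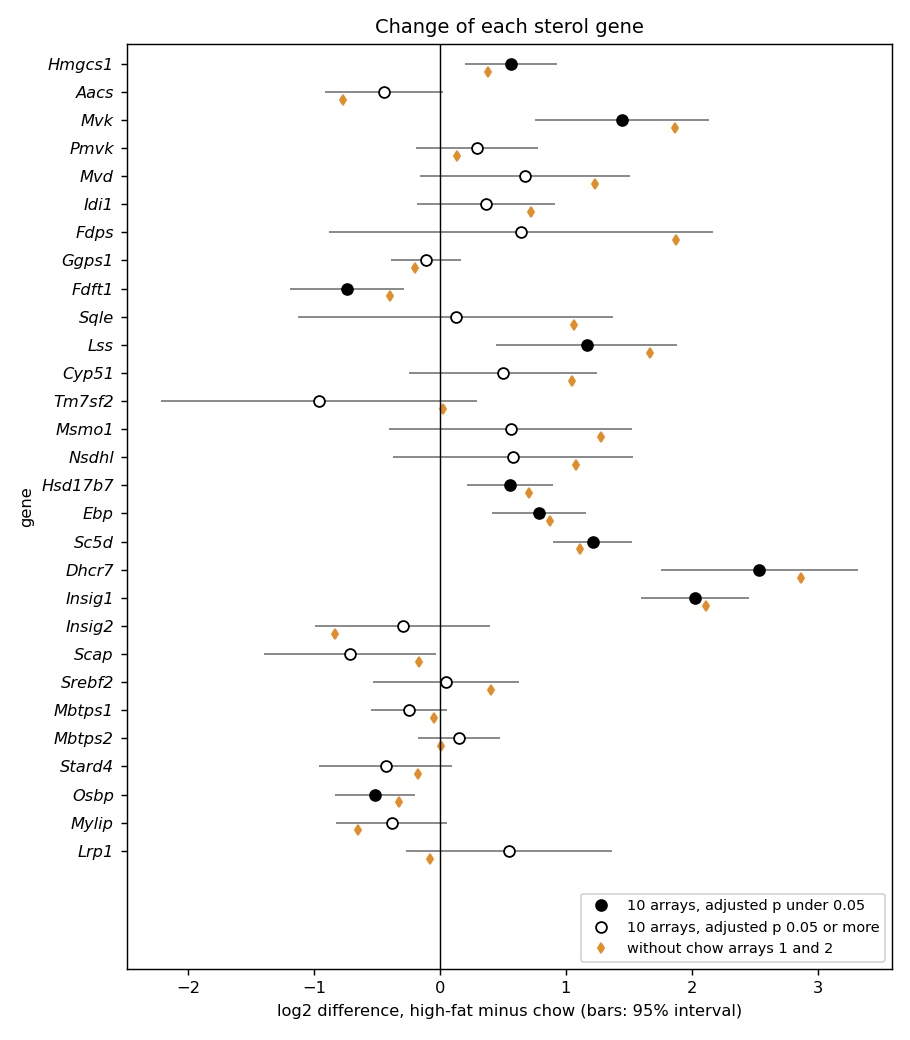
Log2 difference (horizontal axis, high-fat minus chow, 5 arrays each) of the 29 sterol genes in pathway order, with 95% intervals. Filled circles passed an adjusted p of 0.05 in limma, open circles did not, and orange diamonds give the difference without chow arrays 1 and 2. The diamonds of Fdps and Sqle lie far to the right of their circles, at 1.87 and 1.07, while those of Sc5d and Insig1 lie close to theirs.

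Across both arms, the high-fat arrays lay above chow arrays 3, 4 and 5 in 13 of the 19 enzymes (68.4%, against 19.1% of all genes) and below all 3 in Aacs and Fdft1 (10.5%, against 20.8%). Without chow arrays 1 and 2, 13 enzymes were higher and 2 lower, with a median difference of 1.05. That reading rests on 3 chow arrays, which themselves held epididymis and testis markers at means of 10.62, 8.43 and 7.75, above the 4.01 to 5.53 of the high-fat arrays.

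The sensing and SREBP-processing genes comprised 6 measured genes, with a median difference of -0.10. By limma 1 was higher (16.7%, against 12.9% of all genes) and 0 lower (1 and 1 at an unadjusted p under 0.05). Insig1 is both a brake on SREBP and one of its targets. It had 11.17, 10.84, 11.04, 11.27 and 11.00 in high-fat arrays, against 8.58, 9.78, 8.95, 8.98 and 8.93 in chow arrays. The lowest high-fat array stood more than 1 log2 unit above the highest chow array. Insig1 averaged 11.07 ± 0.16 in high-fat arrays and 9.04 ± 0.44 in chow arrays (SD, n = 5 each), a difference of 2.02 (SE 0.19, limma adjusted p = 5.31e-05), or 4.07-fold. It was 2.11 without chow arrays 1 and 2 and 2.74 with the marker covariate, and it kept its call under all 24 alternatives.

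Insig2, the second protein of this kind, did not follow it. It had 9.07, 9.21, 9.06, 9.15 and 9.12 in high-fat arrays, against 8.96, 8.26, 9.81, 10.24 and 9.81 in chow arrays. The high-fat arrays were nearly equal and lay between the low chow arrays 1 and 2 and the high chow arrays 3 to 5. The difference was -0.30 (SE 0.32, adjusted p = 0.543), and -0.83 without chow arrays 1 and 2 (SE 0.11, adjusted p = 0.000187, range over the alternatives 0.000187 to 0.991). The difference Insig1 minus Insig2 within an array was 1.95 ± 0.20 in high-fat arrays and -0.37 ± 1.10 in chow arrays (SD, n = 5 each). The gap of 2.32 was tested by an exact permutation test, 2-sided, with every arrangement of the arrays counted (p = 0.00794, the smallest it can give, and 0.0119 adjusted over 3 such pairs). Each high-fat array lay above each chow array, at 1.63 to 2.13 against -1.26 to 1.52. The highest chow value, that of array 2, came close to the lowest high-fat value. Without chow arrays 1 and 2 the gap was 2.95, with an adjusted exact p of 0.0536 where the smallest raw p is 0.0357.

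Srebf2 encodes the SREBP form that mainly drives cholesterol genes. It had 6.79, 6.83, 7.26, 6.85 and 6.82 in high-fat arrays, against 7.17, 7.63, 6.77, 6.74 and 6.01 in chow arrays, and the groups overlapped. Its difference was 0.05 with a 95% interval of -0.53 to 0.63 (adjusted p = 0.918). Insig1 minus Srebf2 within an array was 4.16 ± 0.27 in high-fat arrays and 2.18 ± 0.54 in chow arrays (SD, n = 5 each), a gap of 1.98 (exact permutation p = 0.00794, 0.0119 adjusted over 3). It was 1.71 without chow arrays 1 and 2 (adjusted exact p = 0.0536).

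Scap, the escort of SREBP, had 8.16, 8.46, 8.14, 8.21 and 7.91 in high-fat arrays, against 9.76, 9.67, 8.39, 8.33 and 8.29 in chow arrays. Chow arrays 1 and 2 alone stood clear of the high-fat range. The difference of -0.71 did not pass (SE 0.31, adjusted p = 0.118), and it was -0.16 without those arrays. Neither of the proteases that cut SREBP in turn passed, Mbtps1 differing by -0.25 (SE 0.14, adjusted p = 0.217) and Mbtps2 by 0.15 (SE 0.15, adjusted p = 0.505). Mbtps1 minus Mbtps2 within an array was 0.73 ± 0.26 in high-fat arrays and 1.13 ± 0.51 in chow arrays (SD, n = 5 each), a gap of -0.40 that did not pass (exact permutation p = 0.159, also after adjustment). Mbtps2 passed only with array medians centred (0.55, adjusted p = 0.0163, range over the alternatives 0.0163 to 0.957).

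**Figure D3:**
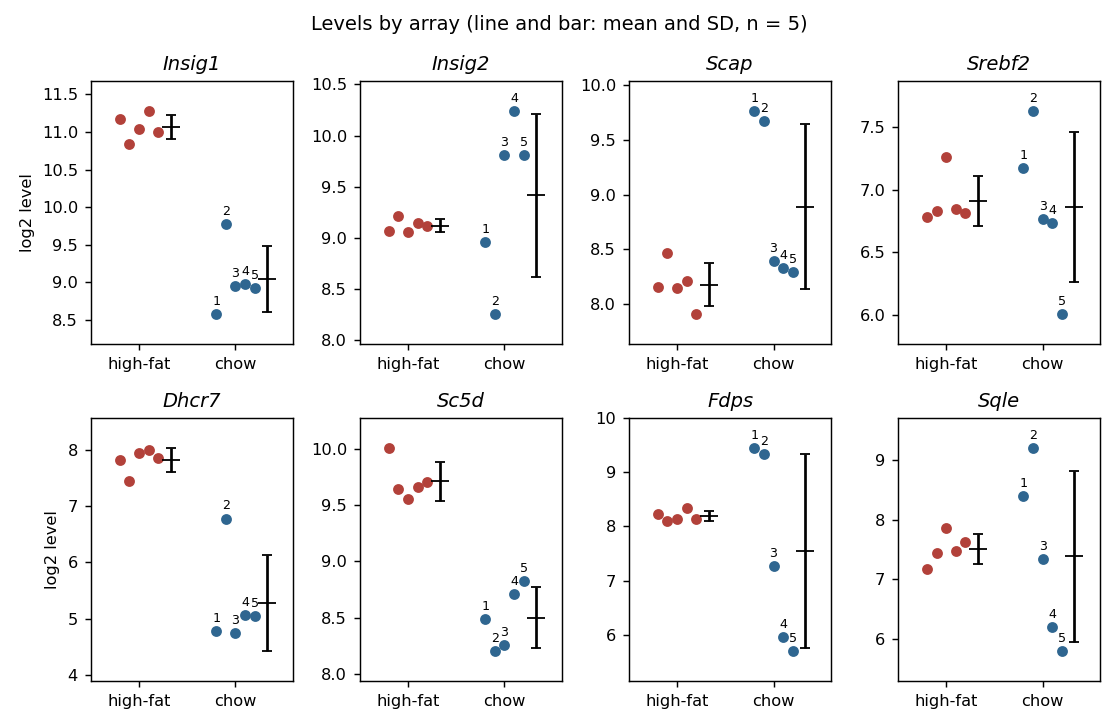
Log2 level of 8 sterol genes in each array (points), with the mean and SD of the 5 high-fat and the 5 chow arrays (line and bar), chow points numbered by array. Insig1, Dhcr7 and Sc5d separate the diets, whereas for Fdps and Sqle chow arrays 1 and 2 lie above the high-fat points and chow arrays 4 and 5 below them. Each panel has its own vertical axis.

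The transport and receptor genes comprised 4 measured genes, with a median difference of -0.40. By limma 0 were higher and 1, or 25.0%, lower, against 13.1% of all genes lower (also 0 and 1 at an unadjusted p under 0.05). Osbp, which exchanges cholesterol for a phosphoinositide where endoplasmic reticulum and Golgi touch, had 8.52, 8.43, 8.49, 8.73 and 8.51 in high-fat arrays, against 9.25, 9.43, 8.94, 8.67 and 8.97 in chow arrays. Chow array 4 alone fell inside the high-fat range. The difference was -0.52 (SE 0.14, limma adjusted p = 0.0223), and -0.32 without chow arrays 1 and 2 (adjusted p = 0.0295). The call was lost as deposited (-0.23, adjusted p = 0.354), with medians centred (-0.09, adjusted p = 0.681) and without high-fat array 2 (-0.49, adjusted p = 0.0564), 3 (-0.50, adjusted p = 0.0528) or 5 (-0.51, adjusted p = 0.0516), over a range from 0.00814.

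Stard4, a cytosolic carrier that moves cholesterol between membranes, differed by -0.43 (SE 0.24, adjusted p = 0.222). It lay at 6.71 to 7.08 in high-fat arrays, against 8.31 in chow array 1 and 7.06 to 7.10 in the other chow arrays, so chow array 1 alone stood clear of the high-fat range. Mylip, the ubiquitin ligase that sends lipoprotein receptors to degradation and is itself switched on by sterol sensing through LXR, differed by -0.38 (SE 0.20, adjusted p = 0.192). Mylip lay at 9.11 to 9.68 in high-fat arrays, against 8.99 in chow array 2 and 9.58 to 9.99 in the other chow arrays. It passed without chow array 2 (-0.56, adjusted p = 0.0125, range over the alternatives 0.00219 to 0.848). Lrp1, a large endocytic receptor for lipoprotein remnants and other ligands, differed by 0.55 (SE 0.37, adjusted p = 0.316). Its levels were 10.12 to 10.65 in high-fat arrays, against 9.34 and 8.48 in chow arrays 1 and 2 and 10.36 to 10.62 in chow arrays 3 to 5. Without chow arrays 1 and 2 the difference of Lrp1 was -0.08.

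The 29 genes were covered by 64 probe sets, and 19 genes had more than 1. In a fit over all probe sets, where 9.89% were higher and 8.00% lower, 6 of the 35 unused probe sets were higher, 1 was lower and 28 did not pass. No gene had probe sets called in opposite directions. For Sc5d another probe set gave 2.14 (adjusted p = 1.91e-06), for Mvk 2.50, for Lss 1.69 and for Hsd17b7 0.97, each larger than the value of the brightest probe set. Dimmer probe sets of 3 of these genes did not pass in this limma fit. They gave 0.59 for Sc5d (adjusted p = 0.185) and 1.01 for Lss (adjusted p = 0.117), both smaller than the brightest. For Hsd17b7 they gave 0.74 (adjusted p = 0.1055) and 0.63 (adjusted p = 0.60). Hmgcs1 had 5 probe sets. Of these the brightest and 2 others (1.01 and 0.77) were higher, 1 did not pass at 0.53 (adjusted p = 0.0527), and a dim one ran the other way at -1.17 (adjusted p = 0.0502). For Fdft1 the next probe set gave -0.62 (adjusted p = 0.124), a dim one was lower (-1.55, adjusted p = 0.0434) and another dim one gave 0.96 (adjusted p = 0.479). The 3 probe sets of Insig2 gave -0.30, -0.27 and -0.16. Dhcr7, Ebp, Insig1 and Osbp were measured through 1 probe set each.

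Genes around the pathway did not share one direction. Of all genes 12.9% were higher and 13.1% lower. Of 8 measured genes of ketone metabolism and reticulum control 1 was higher (12.5%) and 2 lower (25.0%), with a median of -0.06. Tmem97, a reticulum protein that is a known SREBP target, rose by 1.29 (SE 0.34, limma adjusted p = 0.0169), whereas Pgrmc1, a haem-binding partner of sterol demethylation, fell by 1.04 (SE 0.20, adjusted p = 0.00319). Syvn1, a ubiquitin ligase of reticulum quality control, was lower at -0.59 (SE 0.13, adjusted p = 0.00701). Its call was lost as deposited (-0.29) and with medians centred (-0.16). Of 13 prenyl-transfer and other isoprenoid genes 0 were higher and 2, or 15.4%, lower (0 and 3 at an unadjusted p under 0.05), with a median of -0.02. These were Rabggtb, a subunit of the transferase that prenylates Rab proteins (-0.49, SE 0.11, adjusted p = 0.00969), and Fnta, the subunit shared by farnesyl and geranylgeranyl transferases (-0.39, SE 0.093, adjusted p = 0.0112). Neither call held as deposited or with medians centred, where Fnta lay at 0.0019 and 0.14. With the marker covariate, of these 5 genes Tmem97 alone passed (2.50, adjusted p = 0.0172, range over the alternatives 0.000443 to 0.0422).

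Of 15 genes of SREBP-1 and fatty acid synthesis 4 were higher and 4 lower, with a median of -0.14. Each count is 26.7% of the list, against 12.9% of all genes higher and 13.1% lower. Acss2, which makes cytosolic acetyl-CoA from acetate, rose by 1.72 (SE 0.17, limma adjusted p = 6.00e-05), and Me1, a malic enzyme that supplies NADPH, by 1.94 (SE 0.39, adjusted p = 0.00410). With the marker covariate Me1 did not pass (0.90, adjusted p = 0.474, the highest over the alternatives, from 0.000140). Fads2, a fatty acid desaturase, fell by 3.58 (SE 0.70, adjusted p = 0.00370). Chow arrays 1 and 2 were its highest, at 10.94 and 10.32, and without them its difference was -2.35 (adjusted p = 0.000200, the lowest over the alternatives). With the marker covariate it was -2.93 and did not pass (adjusted p = 0.249, the highest). The list of LXR, efflux, ester and oxysterol genes had 3 of 13 higher (23.1%) and 4 lower (30.8%), with a median of 0.12. Its largest rises were those of Nceh1 by 3.38 (SE 0.37, adjusted p = 0.000109) and the lysosomal lipase Lipa by 2.90 (SE 0.28, adjusted p = 5.83e-05). Both free cholesterol from esters. Lipe, another lipase of the list, did not pass (0.37, SE 0.52, adjusted p = 0.649). Lcat, which esterifies cholesterol on lipoproteins, fell by 2.30 (SE 0.50, adjusted p = 0.00653). With the marker covariate Nceh1 lay at 2.16 (adjusted p = 0.0531, the highest over the alternatives, from 1.09e-06) and Lcat at -2.48 (adjusted p = 0.178, the highest, from 0.000278), and neither passed. With 16 added to each intensity Lcat differed by -1.44. Macrophages express Nceh1 and Lipa strongly, and all 8 macrophage markers were higher beside them, whose part in these differences was not tested. Of 16 oxysterol-binding and sterol-transfer genes 2 were higher (12.5%) and 5 lower (31.25%), with a median of -0.32. Osbpl3 rose by 1.96 (SE 0.23, adjusted p = 0.000152), Gramd1c fell by 1.63 (SE 0.38, adjusted p = 0.00973) and Osbpl6 fell by 1.57 (SE 0.50, adjusted p = 0.0391). Osbpl3 did not pass with the mean of its probe sets (0.76, adjusted p = 0.0919, the highest over the alternatives, from 1.01e-05) or with the marker covariate (1.24, adjusted p = 0.0685). Gramd1c was -1.08 without chow arrays 1 and 2 and did not pass with the covariate (adjusted p = 0.426, the highest, from 0.00434). The call of Osbpl6 was lost when any of 7 arrays was left out, with values from -1.71 to -1.45, and without chow arrays 1 and 2 (-0.81, adjusted p = 0.0582, range 0.0184 to 0.342).

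**Figure D4:**
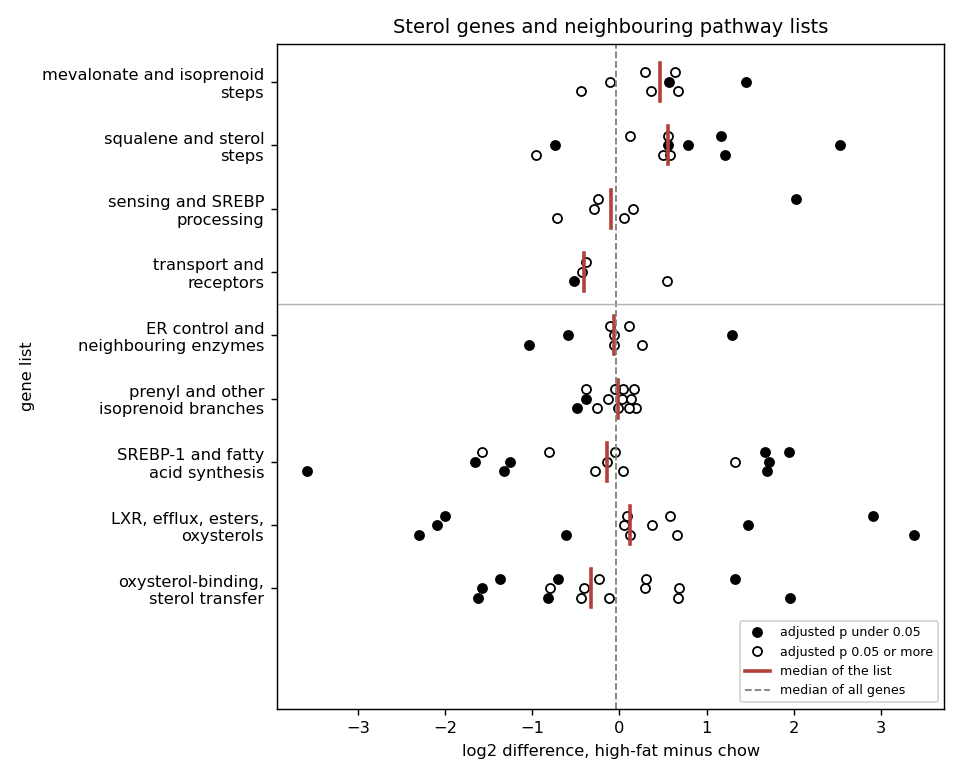
Log2 difference (horizontal axis, high-fat minus chow, 5 arrays each) of each gene in the 4 groups of sterol genes (above the line) and in 5 neighbouring lists (below it). Filled circles passed an adjusted p of 0.05 in limma, red bars mark each list's median and the dashed line the median of all genes. The medians of both enzyme groups, 0.47 and 0.56, lie to the right of the dashed line at -0.04, and those of the neighbouring lists lie between -0.32 and 0.12.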

How the data were processed

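Total RNA of each mouse's epididymal fat was made into biotin-labelled cRNA, per the labels' protocols, and hybridised to 1 array. The authors deposited linear intensities of 45101 probe sets per array. Of summary algorithm and scaling nothing is given in the sources used here, and the log2 medians of the arrays differed by up to 0.613. Here, 64 control probe sets were left out, values under the 5th percentile (0.658) were raised to it, and log2 values were quantile normalised. Gene symbols came from the platform annotation: 34945 probe sets had 1 symbol, 932 several, and 9211 were not listed. Each gene was taken from its brightest single-symbol probe set. Both diets (5 arrays each) were compared with limma 3.58.1 in R 4.3.3 (lmFit, eBayes with trend), with p-values adjusted by Benjamini-Hochberg over 18193 genes and a threshold of 0.05. Differences between a pair of genes within arrays were tested by exact permutation. On simulated data for this comparison with 18193 genes, 63% of 100 log2 changes of 1 and 92% of 100 changes of 2 were recovered, with 9 false calls among 164. The simulation drew genes independently, gave both diets the same SD and placed changes only in genes above the median level. In the real arrays 76.8% of all genes had a larger SD on chow, so these rates may not carry over. The precision is limited by the 5 arrays per diet and the spread among them, and array intensities carry no counts. Same-numbered arrays of the diets did not deviate together (correlations of -0.0201 to 0.00561), so the numbers were taken as names only. In all 24 alternatives were fitted. Every sterol gene is given with its difference. Of each neighbouring list the text names up to 3 genes past the threshold with the largest difference, and Lipe beside them. The genes and lists were chosen with earlier results of these data known.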

Additional observations from a re-analysis of the deposited data

Results flagged for a closer look

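In 7 of 86 groups of 5 arrays, 1 array stood apart from the other 4 by Dixon's criterion (gap over range above 0.71), where chance gives about 1 in 20. High-fat array 1 was high for Hmgcs1, at 12.34 with the next array at 11.80, and for Mvk, at 7.14 with the next at 6.56. Chow array 2 was high for Dhcr7, at 6.78 with the next chow array at 5.06. High-fat array 3 was high for Srebf2, at 7.26 with the next at 6.85. Chow array 1 was high for Stard4, at 8.31 with the next at 7.10. Among the neighbouring genes, high-fat array 2 was low for Tmem97, at 6.75 with the next at 6.98, and chow array 1 was high for Nceh1, at 7.42 with the next at 5.84.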

How the results depend on the processing

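Over 24 alternatives the 29 sterol genes gave 696 comparisons with the reported call, of which 638 kept their side of the threshold, 30 lost the call and 28 gained one. Among the 638, 618 kept their sign and 20 did not. Those 20 came from 11 genes, none of them called. Ebp, Dhcr7 and Insig1 kept their calls under every alternative run. The count of higher sterol genes, 8 as reported, was 14 with array weights, 14 without chow arrays 1 and 2 and 4 with the epididymis and testis covariate. It was 6 to 12 when 1 array was left out, the 12 without chow array 2. The count of lower sterol genes, 2 as reported, was 0 as deposited, 0 with medians centred, 1 with the mean of all probe sets, 1 without probe sets open to cross-matches, 5 with array weights, 5 without chow arrays 1 and 2 and 0 with the covariate. It was 0 to 3 when 1 array was left out: 1 without high-fat array 2 or 3, and 0 without high-fat array 5 (limma; 2 at an unadjusted p under 0.05). With the replicate number as a block (replicate block), 6 sterol genes were higher and 1 lower, and the calls of Hmgcs1, Hsd17b7 and Osbp were lost. In the neighbouring lists, 10 genes were higher and 17 lower as reported. The higher count was 19 with medians centred and 4 with the covariate, and the lower count was 11 as deposited, 9 with medians centred and 2 with the covariate, and 10 to 18 when 1 array was left out, falling to 11 without high-fat array 3 and 10 without high-fat array 5. Fnta changed sign to 0.0019 as deposited, 0.14 with medians centred and 0.0012 without probe sets open to cross-matches. The within-array gaps of Insig1 with Insig2 and with Srebf2 did not pass without chow arrays 1 and 2 (2.95 and 1.71, adjusted p = 0.0536 for both, exact permutation test) or by sign flips in the replicate block (2.32 and 1.98, adjusted p = 0.0938 for both, where the smallest raw p is 0.0625). Some of these fits had fewer arrays and others kept all 10, and the cause of each change was not tested. The filter on dim genes removed none of the 29 sterol genes, all of which had a mean above the median of all probe sets.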
